A study of Drosophila melanogaster with 2 samples.

Results

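Of the 30000 peaks in the relaxed list that pools both replicates, 1282 had their summit in the 3′ untranslated region (3′ UTR) of a protein-coding gene and are described here. A peak is a stretch of genome where sequenced fragments pile up after chromatin immunoprecipitation, and its summit is the highest base. A summit was taken when it lay inside an annotated 3′ UTR interval of the Ensembl gene models, in no 5′ UTR interval, and more than 500 bp from every start of a protein-coding transcript, so that peaks at the promoters of close neighbours were left out. No measured value entered this choice. The chromatin came from whole Drosophila melanogaster embryos of the strain vfl-GFP, of mixed sex and aged 0 to 24 hours, in which vfl carries GFP at its C-terminus and the insertion targets zld. The samples are described as precipitated through GFP, with an anti-GFP antibody, while their antibody field reads vfl; chromatin was sonicated to a size range of 200 to 800. There was 1 group of 2 biological replicates, numbered 2 and 3, and no group without the fusion or without the antibody among the peak lists, so there is no contrast between conditions. The line is a single transgenic line, and an embryo collection of this age span mixes all embryonic stages and tissues, so a peak cannot be placed in a stage or cell type.

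Zelda, the protein made by zld (also called vfl or vielfaltig), is a zinc finger transcription factor of the early fly embryo that binds DNA even in closed chromatin and opens enhancers before zygotic transcription begins. Its best known binding word is CAGGTAG, with close relatives such as TAGGTAG and CAGGTAA. A 3′ UTR is the part of a messenger RNA after the stop codon, best known for sites read in the RNA by RNA-binding proteins and microRNAs and for the poly(A) signal, most often AATAAA, which directs cleavage of the transcript. As DNA it can also hold enhancers, of the same gene or of another one.

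The relaxed lists were deposited as peaks together with background, the input to a reproducibility test between replicates, so their lower ranks hold places that the authors' threshold did not keep. That thresholded list kept 2876 of the 30000 pooled peaks, or 9.59%. Each relaxed list holds 30000 peaks, read depth is unknown because the lists give no read counts, and rank 1 is the peak with the highest deposited signal. Signal is the authors' value, and as no source says how it was scaled from library to library, it is used within 1 list only.

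Of the 1282 peaks, 15 held CAGGTAG no more than 100 bp from their summit. The sites below show the factor's known word where it occurs, which in the 18 thresholded 3′ UTR peaks was in 2. They are those at the 8 strongest peaks that hold it, leaving out the site in CG42516, and that in the gap gene kni. Each has 10 bases on either side of the word, is written 5′ to 3′ on the strand named, and has CAGGTAG in capitals. Sequences are from the NCBI Release 6 assembly, which is dm6.
Cals, chr4:1113410-1113436, plus strand: ttacacgcgcCAGGTAGatttttcggt
CG7872, chrX:15579755-15579781, minus strand: tgtgaccagcCAGGTAGgggtataatt
CG7378, chrX:18910686-18910712, plus strand: aagccctaaaCAGGTAGcagttgttaa
Elal, chr3R:24866891-24866917, minus strand: gcctgccagcCAGGTAGctcctgtcgt
CG42542, chr3R:15202509-15202535, minus strand: tggggtttatCAGGTAGtaactaaaac
Shal, chr3L:19568629-19568655, plus strand: aggcctccacCAGGTAGgtgccatcca
Naa80, chr3R:9769872-9769898, minus strand: aggtagattgCAGGTAGatttttgtct
Naa80, chr3R:9769883-9769909, minus strand: atcaccattgCAGGTAGattgcaggta
kni, chr3L:20692656-20692682, minus strand: acagcctgacCAGGTAGttgcattgca

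The Naa80 sites overlap, so that each holds part of the other's word in its flanking bases. Of the genes listed, Cals and CG7872 had peaks in the authors' thresholded list, and the others had not.

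Peaks in 3′ UTRs were rare among the strongest peaks of each list and more frequent further down. Bases that meet the rule cover 6.91 Mb, or 5.04% of the assembled arms, while 4.27% of pooled peaks had their summit there (95% Wilson interval 4.05 to 4.51), a ratio of 0.847. Applied to each replicate's own relaxed list, the rule found 1223 peaks in replicate 2, a ratio of 0.808, and 1369 in replicate 3, a ratio of 0.905, which gives 0.856 ± 0.0682 (SD, n = 2). Both replicates therefore had fewer summits in 3′ UTRs than their share of bases. For the other classes the pooled ratio was 2.76 for promoters (within 500 bp of a coding start), 1.52 for 5′ UTRs, 0.816 for coding exons, 0.937 for introns and 0.534 for intergenic sequence. All intervals given cover counting error over peaks only.

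Along the pooled list the 3′ UTR share was 0.633% in the first 3000 ranks (19 peaks), 1.74% from there to rank 10000 (122 peaks), 4.96% on to rank 20000 (496 peaks) and 6.45% in the last 10000 ranks (645 peaks). The share went up at each step in the pooled list, and also in both replicates' own lists. Replicate 2 had 0.800%, 2.29%, 5.01% and 5.38% over the same ranks, and replicate 3 had 0.733%, 2.64%, 5.15% and 6.47%. In the last stretch the lower bound of the interval was above the share of bases in the pooled list and in replicate 3, at 5.99% and 6.00%, while in replicate 2 it was below it, at 4.95%. Coding exons followed the same course, from 0.167% to 16.1% of pooled peaks between the first and the last stretch, whereas promoters went from 64.3% to 18.2%.

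**Figure D1:**
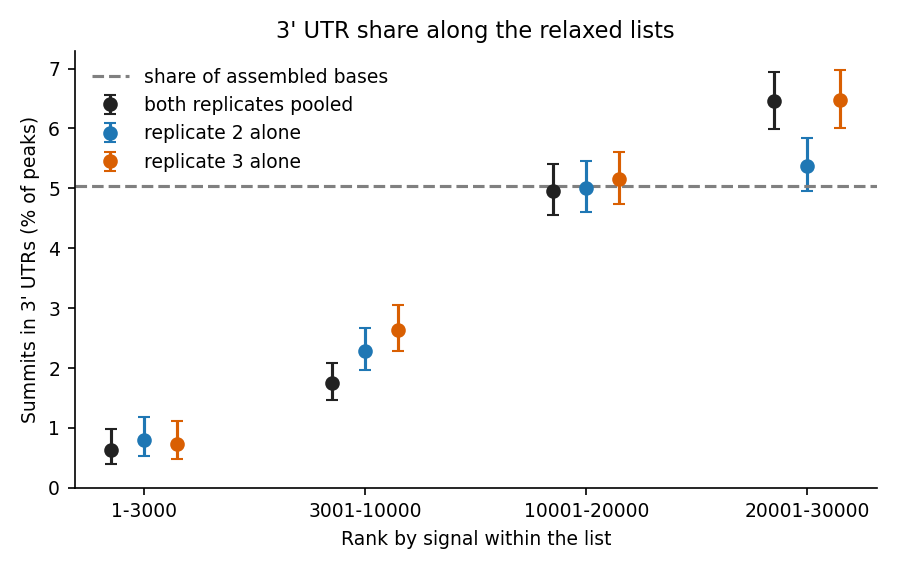
Share of peaks with a summit in a 3′ UTR (percent, vertical axis) along the ranks by signal of the pooled list and of each replicate's own list (horizontal axis); bars are 95% Wilson intervals and the dashed line is the share of assembled bases, 5.04%. In all 3 lists the share was below 1% in the first 3000 ranks and above 5% in the last 10000.

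The median pooled rank of the 1282 peaks was 20051, and the median signal was 20.1 (lowest 15.6, highest 198), against 23.7 over all pooled peaks. Just 18 of them, 1.40% (interval 0.890 to 2.21), were in the thresholded list, beside 9.59% of all pooled peaks. The low share goes with the low ranks, since 18 of the 19 3′ UTR peaks in the first 3000 ranks were kept and none further down.

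The strongest 3′ UTR peak lay in Cals, which encodes calsyntenin, a membrane protein of the cadherin superfamily, on the small chromosome 4. Its pooled signal was 198 at rank 265, and its own signal was 108 in replicate 2 (rank 329) and 94.1 in replicate 3 (rank 182). The summit, at chr4:1113364, was 490 bp from the nearest transcript end and 9601 bp from the nearest coding start, also that of Cals. None of the other thresholded peaks lay as far from a coding start. The middle of the CAGGTAG shown for Cals was 59 bp from the summit.

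The next strongest peak lay in by (blistery), the fly tensin, which links integrins to the actin cytoskeleton. It had signal 160 at pooled rank 413, 90.8 in replicate 2 (rank 461) and 68.1 in replicate 3 (rank 415), with its summit at chr3R:9528676. In stas (stasimon), needed for the function of motor circuits, the pooled signal was 126 at rank 708, with 78.1 in replicate 2 (rank 659) and 46.9 in replicate 3 (rank 995). Tctp, a conserved growth regulator, had 121 at rank 767, with 59.4 in replicate 2 (rank 1144) and 60.4 in replicate 3 (rank 547). These 4 peaks were within the first 3000 ranks of both replicates, as were 9 of the 18 thresholded peaks in all. Of the 18, 11 had the better rank in replicate 2 and 7 in replicate 3.

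CG7872, the other thresholded peak with CAGGTAG, had a pooled signal of 120 at rank 783, with 85.6 in replicate 2 (rank 531) and 34.8 in replicate 3 (rank 1946). Its summit lay 21 bp from the transcript end. The peak in CG9837 had 99.0 at rank 1137, with 36.4 in replicate 2 (rank 2797) and 28.3 in replicate 3 (rank 3036), and so ranked higher in the pooled list than in either replicate. CG8206 had 98.7 at rank 1149, with 41.8 in replicate 2 (rank 2206) and 58.9 in replicate 3 (rank 577). Like that of CG7872, both summits were close to a transcript end, at 19 bp in CG9837 and 42 bp in CG8206.

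The other 11 thresholded peaks had pooled signals between 66.3 and 80.6. In order they lay in CG14440, in qvr (quiver, a regulator of the Shaker potassium channel needed for sleep), in REG (a proteasome activator), in CG4467, in CG1888, in puml (pummelig, which acts in fat storage), in scf, in CG16989, in CG33307, in Bre1 (the ligase that adds ubiquitin to histone H2B) and in Ppa (partner of paired, an F-box protein). CG14440, the strongest of them, had signal 50.6 in replicate 2 (rank 1581) and 28.2 in replicate 3 (rank 3075). The peak in scf was far apart in the replicates, at rank 9770 in replicate 2 (signal 18.3) and rank 1079 in replicate 3 (signal 45.2). Ppa went the other way, at rank 1753 in replicate 2 (signal 47.8) and rank 7441 in replicate 3 (signal 18.0). The next peaks down were Ssu72, which encodes an RNA polymerase II phosphatase of 3′ end processing (signal 61.6, rank 2889), and CG14505 (60.2, rank 3020), neither in the thresholded list. Of the 18, 6 lay on X, 4 each on 2R and 3R, 2 on 3L, and 1 each on 2L and 4.

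**Figure D2:**
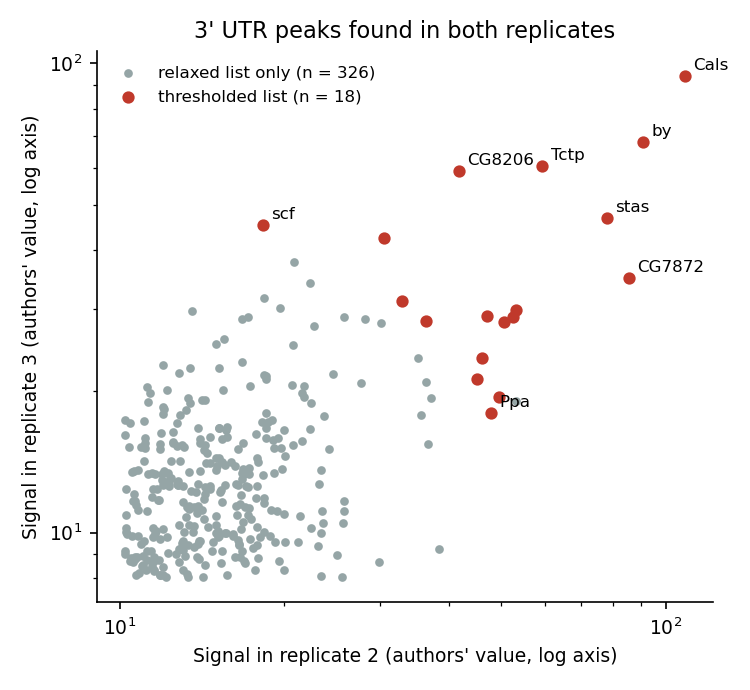
Signal in replicate 2 (horizontal) against signal in replicate 3 (vertical), both the authors' values on log axes, for the 344 3′ UTR peaks with a summit within 200 bp in both replicates. The 18 thresholded peaks include the highest signals in both replicates, with Cals at 108 and 94.1, but some were low in 1 replicate, such as scf at 18.3 in replicate 2 and Ppa at 18.0 in replicate 3. The median pooled rank of all 344 was 11712.5. The 326 others had lower pooled signals than the thresholded ones, but some, such as CG8908 at 35.2 and 23.6, lie among them here.

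Presence in the replicates was scored as a relaxed summit within 200 bp. In replicate 2 this held for 773 of the 3′ UTR peaks, or 60.3%, beside 71.1% of all pooled peaks, and in replicate 3 for 721, or 56.2%, beside 67.2%. Both replicates had a summit at 344 of them, 26.8% (interval 24.5 to 29.3), beside 44.9% of all pooled peaks. Replicate 2 alone had a summit at 429 of them and replicate 3 alone at 377. Together these were 806 peaks, or 62.9%, beside 48.6% of all pooled peaks. Neither replicate had a summit at 132 (10.3%), beside 6.55% of all pooled peaks.

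The lower presence went with rank. Within the same stretch of ranks 3′ UTR peaks were found in both replicates about as often as the other peaks outside promoters. After the first 3000 ranks and up to rank 10000 the share in both was 86.1% for 3′ UTRs (interval 78.8 to 91.1), 77.4% for coding exons, 83.0% for introns and 83.9% for intergenic peaks. On to rank 20000 it was 34.9% (30.8 to 39.2), beside 32.7%, 37.9% and 36.6%, and in the last 10000 ranks it was 7.29% (5.52 to 9.56), beside 6.51%, 7.86% and 7.51%. The intervals for introns and intergenic sequence overlapped those of 3′ UTRs in each stretch. In the first 3000 ranks all 19 3′ UTR peaks were present in both.

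**Figure D3:**
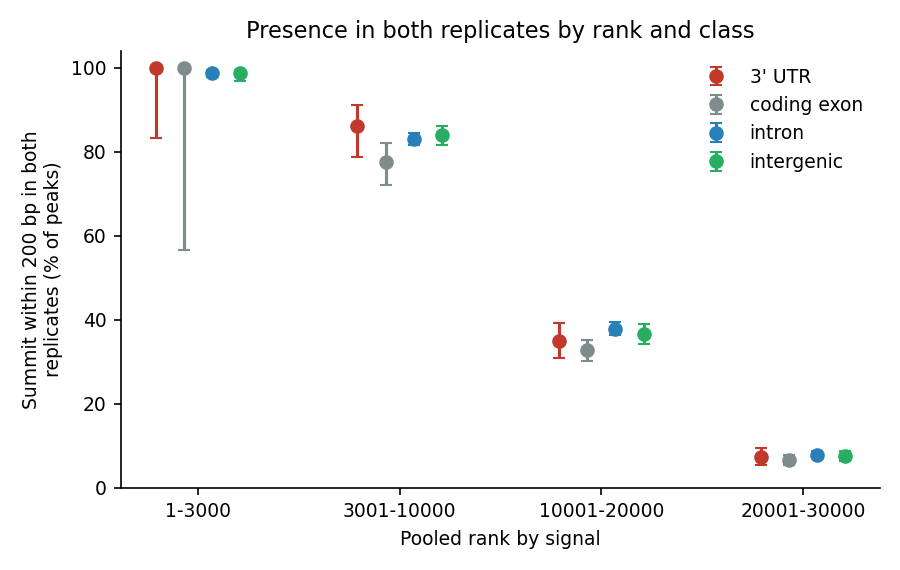
Percent of pooled peaks with a relaxed summit within 200 bp in both replicates (vertical axis) by pooled rank (horizontal axis) for 3′ UTR, coding exon, intron and intergenic peaks; bars are 95% Wilson intervals. All 4 classes fell together, from 98.7% or more in the first stretch to between 6.51% and 7.86% in the last.

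Over the 344 peaks present in both replicates, signals in replicates 2 and 3 had a Spearman rho of 0.35 and a Pearson r on log2 signal of 0.56. For coding exon peaks rho was 0.096 (n = 739), for introns 0.50 (n = 4545) and for intergenic peaks 0.52 (n = 1948). For promoters it was 0.63 (n = 5732) and over all pooled peaks 0.58 (n = 13455). Unlike presence above, these values were not matched for rank, which differs between the classes. These are descriptions over peaks that share 2 libraries, not tests.

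Peaks found in 1 replicate alone differed in base composition and position between the replicates. The 429 found only in replicate 2 had 42.2% ± 9.46 G and C within 100 bp of the summit (SD over peaks), and 22.1% of them (interval 18.5 to 26.3) were also inside coding sequence of some transcript. The 377 found only in replicate 3 had 39.0% ± 8.59, and 9.81% of them (7.20 to 13.2) were also inside coding sequence. Peaks in both replicates had 40.9% ± 8.30 and 11.9% in coding sequence. The same leaning was seen over each replicate's whole relaxed list, where the mean content of G and C was 43.2% in replicate 2 and 41.6% in replicate 3, and coding exons took 3966 and 2625 peaks. The part of base composition in these differences was not tested.

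Among the 300 strongest 3′ UTR peaks with a summit in both replicates, the largest rank differences in favour of replicate 3 were at nocte, Cip4, Zdhhc8, Pex14 and Pdp1. At nocte, a gene of temperature entrainment of the circadian clock, replicate 3 had rank 7935 and replicate 2 rank 29907. Pdp1, a clock transcription factor, had rank 6130 in replicate 3 and 25169 in replicate 2. In favour of replicate 2 the largest were at a summit shared by the 3′ UTRs of CG12535 and Myc, and at CG7378, CG2938, Crag and tth. The Myc peak, in the gene for the growth regulator, had rank 5138 in replicate 2 and 29671 in replicate 3. All 5 peaks that favoured replicate 2 were on X, as were 2 of those that favoured replicate 3. Over all 263 3′ UTR peaks on X, 59.7% were present in replicate 2 and 55.9% in replicate 3, close to the 60.3% and 56.2% over all arms.

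Peaks lay nearer to coding starts than the bases of 3′ UTRs do, even beyond the limit of 500 bp. The median distance was 2055 bp, beside 2578 bp for all bases that meet the rule. Up to 1000 bp from a start lay 17.9% of the peaks (interval 15.9 to 20.1) and 14.7% of the bases, and from there to 2000 bp lay 31.1% (28.6 to 33.7) and 24.6%. Beyond 10000 bp the order was turned, with 5.15% of peaks (4.07 to 6.50) and 10.5% of bases. Replicates 2 and 3 on their own had 19.2% and 18.5% up to 1000 bp, both above the share of bases. Over all 1282 peaks, 528 had the start of their own gene nearest. Of the 230 peaks up to 1000 bp from a start, 64 had the start of their own gene nearest, and 131 lay upstream of the nearest start. None of the 18 thresholded peaks was this near. Of these 18, 14 had the start of their own gene nearest, and 4 lay upstream of another gene's. Among the 4 was the peak in CG4467, 2120 bp from a start of cnc, the gene of a bZIP stress and patterning factor.

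**Figure D4:**
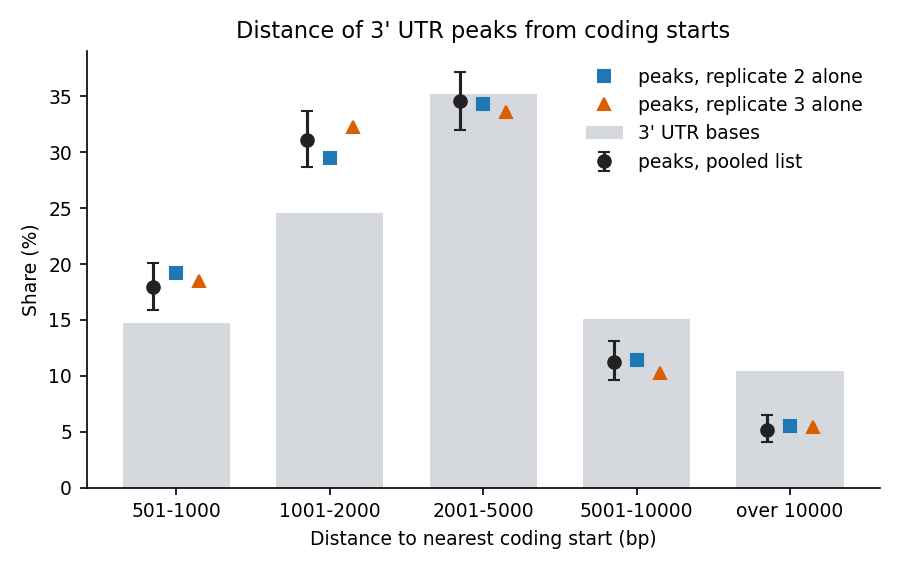
Distance from the nearest coding start (bp, horizontal axis) and share (percent, vertical axis) of 3′ UTR bases (grey bars), of pooled 3′ UTR peaks (black, with 95% Wilson intervals) and of the peaks of each replicate's own list (blue and orange). Peaks exceeded bases in the bins up to 2000 bp and fell short of them beyond 5000 bp in all 3 lists.

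The peaks nearest the limit were in CG34315, at 510 bp from a start of Orc3, in mRpL27, at 512 bp from RpL27A, and in wun, at 512 bp from CG33774. Of these mRpL27, a mitochondrial ribosomal protein gene, had the strongest peak (signal 51.5, rank 3872). Just inside the limit, and so left out, were summits in sut1 at 500 bp, CG30373 at 499 bp and Usp15-31 at 498 bp. In all, 190 summits in a 3′ UTR and in no 5′ UTR were left out for a coding start within 500 bp, of which 22 were thresholded, and 35 for lying in a 5′ UTR as well, of which 3 were thresholded. The 3′ UTR summits left out thus held more thresholded peaks than the 1282 kept.

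Peaks were more frequent than bases at some distance from a transcript end, but not next to it. From 200 to 500 bp from an end lay 29.8% of the peaks (interval 27.4 to 32.4) and 24.4% of the bases, with 30.0% in replicate 2's own list and 28.5% in replicate 3's, both above the share of bases. Within 200 bp of an end lay 27.6% of the peaks (interval 25.2 to 30.1) and 30.7% of the bases, with 25.1% in replicate 2's own list and 33.5% in replicate 3's, on either side of the share of bases. The end of a gene can be read differently by different transcripts: 193 summits (15.1%, interval 13.2 to 17.1) were also inside coding sequence of another transcript, where 12.4% of bases were. Replicate 2's own list had 16.7% and replicate 3's 9.86%, on either side of the share of bases. In the first 10000 pooled ranks the coding share was lower, at 5.67% (2.90 to 10.8). Also intronic were 180 summits (14.0%), where 16.1% of bases were. No thresholded peak was also coding. In 3′ UTRs of both strands, where convergent genes overlap, lay 23 peaks, 1.79% (1.20 to 2.68) beside 2.53% of bases.

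Starts of genes that make no protein were not part of the rule, and 35 peaks lay within 500 bp of one, 2.73% (interval 1.97 to 3.77) beside 2.01% of bases. Of these 23 were near a non-coding RNA, 6 near a snoRNA, 4 near a tRNA and 2 near a pseudogene. The strongest was in CG44403, with signal 46.9 at pooled rank 4490, and the next in Plzf, with 42.1 at rank 5395; none was thresholded. Annotated transposable elements held 8 summits, 0.624% beside 0.733% of bases. The 41 bp around the summit occurred more than once in the assembly at 4 peaks, in osp, pan, CG8765 and IntS6, with 7, 3, 10 and 2 copies, and reads there cannot be placed by these bases alone.

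On the large arms the density of peaks went from 168 per Mb of 3′ UTR on X to 211 on 2R. 2R held 19.3% of the peaks (interval 17.3 to 21.6) on 17.0% of the bases, and X held 20.5% (18.4 to 22.8) on 22.7%. On chromosome 4 it was 258 per Mb, from 28 peaks, 2.18% of all (interval 1.52 to 3.14) on 1.57% of the bases.

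Besides CAGGTAG, 9 words were searched near the summits, each read in both directions and each spelled out where its share is given: the 4 closest relatives of CAGGTAG, a pair of core promoter words, and the words of the GAGA factor, of the poly(A) signal and of Snail. No word contains another. CAGGTAG was in 1.17% of the 3′ UTR peaks (15 peaks, interval 0.710 to 1.92), in 0.769% of windows of the same length over all 3′ UTR bases and in 1.25% of the flanks centred 1000 bp to each side. The share in the peaks was thus above that of 3′ UTR windows, which lies inside the interval, and not above that of the flanks. Flanks can lie outside the 3′ UTR, as the median summit was 533.5 bp from the start of its 3′ UTR. Replicate 2's own 3′ UTR peaks had 1.31% and replicate 3's 1.46%. Over all pooled peaks the share was 1.98%, with 2.54% for coding exons, 2.18% for introns, 2.24% for intergenic peaks and 1.58% for promoters.

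The word was in 2 of the 18 thresholded peaks and in 4 of the 141 in the first 10000 ranks, or 2.84% (interval 1.11 to 7.07), beside 0.964% at lower ranks. The share at lower ranks is below that interval, which rests on 4 peaks. They were in Cals, CG7872, CG7378 and Elal. In the first 10000 ranks the word was also in 3.13% of intron peaks, 3.22% of intergenic peaks, 1.91% of coding exon peaks and 1.58% of promoter peaks. CG7378 had signal 23.4 in replicate 2 (rank 6004) and 8.09 in replicate 3 (rank 29541), and Elal 14.6 (rank 15552) and 16.0 (rank 9340). The peaks in CG42516 and in Shal, a potassium channel gene, were found in replicate 3 alone, and those in CG42542 and Naa80, an acetyltransferase gene, in replicate 2 alone.

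Of the relatives of the word, 3 were no more frequent in the peaks than in 3′ UTRs at large. TAGGTAG was in 0.936% of peaks and 1.16% of 3′ UTR windows, CAGGTAA in 0.702% and 1.07%, and CAGGTAT in 0.858% and 0.944%. CAGGCAG was in 37 peaks, 2.89% (interval 2.10 to 3.95), beside 1.78% of windows and 2.50% of flanks. Replicate 2's own list had 3.43% and replicate 3's 2.48%. The 3′ UTR peaks thus had a higher share of it than 3′ UTR windows, whose value is below the interval. Over all pooled peaks the share was 2.98%, so 3′ UTR peaks had no more of it than peaks at large. Coding exons had 3.95%, introns 2.96%, intergenic peaks 3.15% and promoters 2.54%. CAGGCAG was in none of the thresholded 3′ UTR peaks. The strongest peaks that hold it are shown here, those of CG9166, PNUTS (a regulator of protein phosphatase 1) and Rnf146 (a ubiquitin ligase), with that of Dad, an inhibitor of Dpp signalling; capitals mark CAGGCAG.
CG9166, chr3L:1352210-1352236, plus strand: tgcattcgctCAGGCAGccatctttaa
PNUTS, chr2L:873968-873994, minus strand: tacttaacatCAGGCAGcgacaacgac
Rnf146, chr3L:19637244-19637270, minus strand: gagccgcacgCAGGCAGcataacaatt
Dad, chr3R:17069275-17069301, plus strand: ccaggctgtgCAGGCAGgtgtgcgcac

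These 4 were picked for their place in the list and, for Dad, for the gene's role, after their values were seen. The Dad peak (pooled rank 6303) was found in replicate 3 alone and was also inside coding sequence of some transcript. Both core promoter words were scarce. TATCGATA, the DNA replication-related element, was in 0.702% of 3′ UTR peaks and 0.485% of windows, beside 6.63% of promoter peaks. GGTCACAC, a core promoter word, was in 0.234% and 0.188%, beside 5.42% of promoter peaks. GAGAG, the word of the GAGA factor, was in 21.5% (19.4 to 23.9) and 19.4%, beside 24.7% of promoter peaks. CACCTG, the word of Snail-type repressors, was in 6.71% (5.46 to 8.21) and 5.33%, beside 9.28% of flanks and 8.28% of all pooled peaks.

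AATAAA, the poly(A) signal, was in 37.8% of the peaks (interval 35.2 to 40.5), 41.2% of 3′ UTR windows and 29.8% of the flanks. Over all pooled peaks the share was 35.6%, with 40.0% for introns, 37.8% for intergenic peaks, 38.3% for promoters and 9.15% for coding exons. The 3′ UTR peaks of the replicates' own lists stood apart, with 33.5% in replicate 2 and 41.7% in replicate 3, which is the order of their shares near transcript ends. Mean content of G and C around the summit was 40.7% ± 8.94 (SD over peaks), beside 37.6% over all bases that meet the rule and 43.0% in the flanks, and 41.9% in replicate 2's own list and 39.1% in replicate 3's. Shares of words depend on base composition, and its part in these differences was not tested.

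The 1282 peaks lay in the 3′ UTRs of 1091 genes, of 11499 genes with bases that meet the rule (9.49%). Of these 917 had 1 peak, 131 had 2 and 43 had 3 or more, and 39 peaks lay in the 3′ UTRs of 2 or more genes. Genes with a peak had a median of 1178 bp of such 3′ UTR, beside 254 bp over all 11499. The share with a peak went from 0.799% for the genes with the shortest 3′ UTRs, up to 105 bp, to 41.7% for those with the longest, from 5103 bp, but the number of peaks per kb did not go up with length throughout: it was 0.126, 0.141, 0.204, 0.216, 0.190 and 0.109 per kb from the shortest to the longest class of genes, and 0.185 per kb over all.

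The gene with the most peaks was mei-P26, a TRIM-NHL protein that represses mRNAs in germline stem cell descendants, with 7 peaks in 18.5 kb, or 0.379 per kb. Their pooled signals were between 16.7 and 23.9, the highest at rank 14679. Of the 7, 2 had a summit within 200 bp in replicate 2, 4 in replicate 3 and none in both, and neighbouring peaks matched the same summit of replicate 3. With 5 peaks each followed ps (pasilla, a splicing regulator), eIF4EHP, which represses translation at the mRNA cap, and chinmo, a temporal factor of neuroblasts. With 4 each were CG1888, Glut4EF, corto, elav, Shal, cpx and RhoGAP71E. Among these 11 genes CG1888 alone held a thresholded peak, and its thresholded peak was described with the strongest, while its other peaks had signals from 23.8 to 29.4. In elav, which marks neurons, 3 of the 4 were also intronic in some transcript. In Shal the 4 peaks lay in 2.26 kb, 1.77 per kb, with 3 found in replicate 2, 1 in replicate 3 and none in both.

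**Figure D5:**
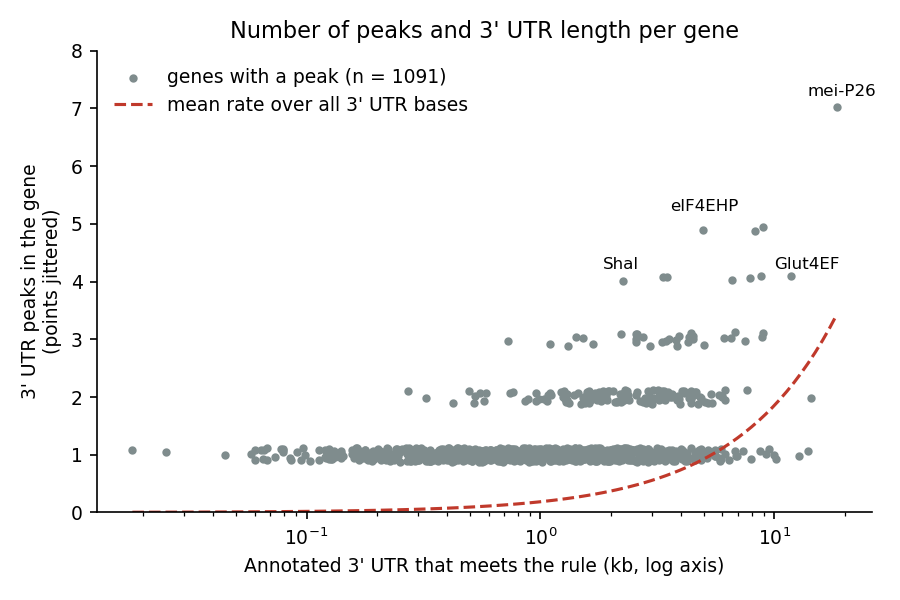
Number of 3′ UTR peaks (vertical axis, points spread slightly to show overlaps) against the length of 3′ UTR that meets the rule (kb, log horizontal axis) for each of the 1091 genes with a peak; the dashed line is the mean rate of 0.185 peaks per kb over all 3′ UTR bases. mei-P26 has 7 peaks in 18.5 kb, while most genes have 1 peak over a wide range of lengths.

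Genes known to make long 3′ UTRs in neurons had peaks in 12 of 14 cases, beside 9.49% of all genes, on 112 kb of 3′ UTR. All genes are mostly shorter there: of those with 1569 to 5096 bp 35.5% had a peak, and of those from 5103 bp 41.7%. Per kb the list had 0.277 peaks, beside 0.185 over all genes. The strongest were in the RNA-binding protein genes cpo (signal 26.4, rank 12279), elav (25.2, rank 13351), pum (25.1, rank 13451) and mub (24.5, rank 14053). No peak of this list, or of the 8 other lists, was thresholded as a gene's strongest. The peaks of cpo and pum were present in both replicates, that of elav in replicate 3 alone and that of mub in replicate 2 alone.

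Early patterning genes, the class of gene best known as targets of Zelda, had 3′ UTR peaks in 3 of the 33 with such a 3′ UTR. That is 9.09% (interval 3.14 to 23.6) beside 9.49% of all genes, and 0.165 peaks per kb beside 0.185. The 3 were Sxl, the switch gene of sex determination (signal 25.3, rank 13285), kni, a gap gene (18.4, rank 23332), and dpp, a BMP ligand (17.6, rank 24858). That of kni holds the CAGGTAG shown and was found in replicate 2 alone. The dpp peak was found in neither replicate. Of the 8 homeotic genes, 3 had peaks, or 37.5% (interval 13.7 to 69.4) beside 9.49% of all genes, and 0.283 peaks per kb beside 0.185 over all genes, from 4 peaks. They were Antp (signal 51.8, rank 3840, with 35.6 in replicate 2 and 17.8 in replicate 3), Ubx (18.3, rank 23503) and abd-A (17.6, rank 24902). The Antp peak was the 27th strongest of the 1282.

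In the list for 3′ UTR control of maternal mRNA, 2 of 14 genes had peaks. That is 14.3% (interval 4.01 to 39.9) beside 9.49% of all genes, and 0.163 peaks per kb beside 0.185 over all genes. They were osk, the determinant of the germ plasm (signal 31.7, rank 8839, at rank 8139 in replicate 2 and rank 18530 in replicate 3), and pum. None of the 15 Notch target genes with regulatory boxes in their short 3′ UTRs had one, in 4.04 kb. The interval of that share, 0 to 20.4%, holds the 9.49% of all genes. RNA-binding regulators had peaks in 11 of 25 genes, or 44.0% (interval 26.7 to 62.9) beside 9.49% of all genes. Their rate, 0.197 per kb, was near the 0.185 over all genes. The strongest were in elav, pum, mub and pAbp, the poly(A)-binding protein gene (22.2, rank 16776). Pioneer and early chromatin factors had peaks in 4 of 13 genes, or 30.8% (interval 12.7 to 57.6) beside 9.49% of all genes, at 0.230 per kb beside 0.185 over all genes. They were Trl, the gene of the GAGA factor (25.1, rank 13473), Iswi, a nucleosome remodeller (23.4, rank 15322), lola (19.9, rank 20435) and psq (19.0, rank 22069). The 3′ UTR of zld itself, 4.48 kb on X, had no peak.

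Of 13 neuron markers 6 had peaks, or 46.2% (interval 23.2 to 70.9) beside 9.49% of all genes. Their rate was 0.215 per kb, beside 0.185 over all genes. The strongest were in para, the voltage-gated sodium channel (signal 39.7, rank 5890), Syx1A, a syntaxin (26.7, rank 12009), and the adhesion genes Nrg (25.7, rank 12917) and Fas2 (25.7, rank 12965). Of 13 muscle markers 6 had peaks, or 46.2% (interval 23.2 to 70.9) beside 9.49% of all genes. Their rate was 0.365 per kb from 8 peaks, beside 0.185 over all genes. The strongest were in bt, the gene of the giant muscle protein projectin (29.7, rank 9987), Act57B, an actin (24.4, rank 14176), Tm1, a tropomyosin (rank 18653), and how (18.8, rank 22557). Lists differ in the length of their 3′ UTRs, which sets the share of genes with a peak, and the rates per kb rest on between 3 and 31 peaks in the lists that have any.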

How the data were processed

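Peak lists on dm6 were used, 1 relaxed list for each of the 2 replicates, 1 for both together and the thresholded list; per the text deposited with the samples, the relaxed lists hold peaks and background and the control was an alignment not analysed here. Lists on dm3 were not used and no coordinates were converted. The peak caller and aligner, with their versions, are not given in the sources read. The signal is the value the authors deposited for each peak, and depth is unknown. Gene models were Ensembl release 115 on BDGP6.54 and sequence the NCBI Release 6 assembly.

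Each summit got 1 class: promoter first (up to 500 bp from a coding start), then 5′ UTR, 3′ UTR, coding exon, and last intron or intergenic. Shares were set beside the exact share of bases, with 95% Wilson intervals. No test was run: 1 group of 2 replicates has no contrast, and peaks are not replicates. Values were repeated in each replicate's own list (mean ± SD, n = 2). The members and lists were chosen with earlier results of these data known. In the lists, nos and fem were not matched, and Fas2 was entered under 2 spellings and counted once.

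Named were all thresholded 3′ UTR peaks, the 20 strongest, the 5 largest rank differences in each direction among the 300 strongest in both replicates, the 10 genes with the most peaks (11, since the last were tied), the 3 peaks on each side of the 500 bp limit, the 8 strongest with CAGGTAG, up to 4 genes per list and zld. The peaks near non-coding genes, those in repeated windows and the CAGGCAG sites were named after their values were seen. Calculations used Python 3.11.15, numpy 2.4.6, pandas 2.3.3, scipy 1.17.1 and matplotlib 3.10.9, and the classing, matching and word search were tested on simulated data.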

Additional observations from a re-analysis of the deposited data

How the results depend on the processing

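No paired analysis was possible because there is 1 group. Over each replicate's own list in place of the pooled one, the values lay at 1223 to 1369 peaks, a ratio of 0.808 to 0.905, 1.68% to 1.80% thresholded, 25.3% to 28.9% in both replicates, a median rank of 18619 to 19335, 25.1% to 33.5% near transcript ends, 22.3% to 27.8% also coding or intronic, 2.29% to 2.70% on both strands, 2.78% to 3.52% near non-coding starts, 18.5% to 19.2% within 1000 bp of a coding start and 1.31% to 1.46% with CAGGTAG. The strongest 15000 pooled peaks gave 366 peaks, a ratio of 0.484, 4.92% thresholded, 63.9% in both, a median rank of 10980.5, 2.46% on both strands, 3.83% near non-coding starts, 21.6% within 1000 bp of a coding start and 1.91% with CAGGTAG; searching the strongest 15000 of each replicate gave 8.42% in both. A limit of 250 bp from coding starts gave 1.53% thresholded and 23.6% within 1000 bp, and one of 1000 bp gave 1.71%, by construction 0%, and 1.33% with CAGGTAG. Without summits in coding sequence 1.65% were thresholded, 14.8% were coding or intronic and 1.01% had CAGGTAG. Counting starts of all genes gave 0% near non-coding starts by construction. Sharing within 100 bp gave 17.6% in both, and within 500 bp 37.4%, with 1.72% thresholded. Ends within 100 bp or 500 bp gave 15.1% and 57.4%, and windows of 50 bp or 200 bp gave 0.546% and 2.57% with CAGGTAG. Of 86 recomputed values 48 moved by less than the spread of the replicate lists (counts by less than 1.5 times). The spread rests on 2 lists, and what unknown depth limits could not be measured; causes were not tested.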
